A study of Danio rerio with 6 samples.

Results

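The genes described here were selected on their measured RNA levels, for a steep and uniform loss in Dlx3b/4b-depleted cells. A gene was a member when the lowest of its 3 wild-type levels was at least 2 times the highest of its 3 morphant levels and its mean raw count over the 6 samples was at least 100. Levels are given as CPM, the counts of a gene scaled to the same total count in every sample. Genes of the mitochondrial genome and genes on chromosome 4 starting at or beyond 30 Mb were left out, and 11139 of the 32266 listed genes could enter. Of these, 49 were members, a share of 0.44%. The reverse rule, with every morphant sample at least 2 times every wild-type sample, found 14 genes, a share of 0.126%. Because the contrast between the groups chose the members, its values are given as a description and without a test.

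RNA came from fluorescence-activated sorted pax8:DsRed-positive cells of zebrafish at 6 to 9 somites, 3 wild-type and 3 morphant samples. All embryos were heterozygous for the pax8:DsRed transgene, and the labels give the sorted cells as nephric anlagen and OEPD, the domain of otic and epibranchial progenitors. The morphant embryos had received antisense morpholinos against dlx3b and dlx4b at the one-cell stage. No control injection of the wild-type embryos is described, so in these samples effects of the injection and of Dlx3b/4b loss cannot be told apart. The study also stained some genes in dlx3b/4b deletion mutants, as given below. Genes of the p53 pathway, a known response to morpholino injection, differed between the groups. Of 11 tested, 7 were higher and 2 lower in morphants at the threshold given with the fit. Over all genes tested, 4.85% were called higher and 6.05% lower. Among those higher were the cell cycle inhibitor cdkn1a (log2 fold change 1.41 ± 0.26), mdm2 (1.35 ± 0.13) and CCNG1 (1.36 ± 0.11). None of the members is on that list, and the part of this response in the members' levels was not tested.

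Dlx3b and Dlx4b are homeodomain transcription factors that make ectoderm competent to form the otic placode, from which the inner ear arises. In zebrafish the first hair cells of the ear, the tether cells, anchor the otoliths, mineral bodies used for balance, and form under the proneural factor Atoh1b. Motile cilia also beat in the early otic vesicle, and the forkhead factors Foxj1a and Foxj1b switch on the genes that build them.

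Between 23846555 and 28480101 counts on genes were listed per sample, and 3 counts correspond to 0.105 to 0.126 CPM, which covers counting error only. Per-sample values are given throughout in the order of replicates 1, 2 and 3. The gene listed as DLX3 on chromosome 12, taken as the knockdown target dlx3b, had wild-type levels of 48.1, 141 and 30.9 CPM and morphant levels of 49.98, 80.7 and 179 CPM. The other target, dlx4b, had 6.18, 24.7 and 3.93 CPM in wild-type and 4.15, 8.68 and 23.8 CPM in morphant samples. Both groups overlapped for both targets, and RNA counts do not show whether the morpholinos removed the proteins. Wild-type replicate 2 stood apart. The summed level of 12 otic-epibranchial marker genes was 2051 CPM there and 1130 to 1377 CPM in the other 5 samples, and all 12 had their highest wild-type value in it. Some markers of other cell types were high there too. The summed level of 4 epidermal and hatching gland markers was 940 CPM against 383 to 704 CPM elsewhere. It came mainly from krt4, at 877 CPM. Of the 4, 3 had their highest wild-type value there. The exception, he1.1, had 14.0 CPM in wild-type replicate 1 and 11.7 CPM in replicate 2. The summed level of 3 neural crest markers was 57.8 CPM against 7.16 to 23.3 CPM, but it came mainly from SOX10, at 54.9 CPM. Of the other crest markers, crestin had 5.29, 2.89 and 4.81 CPM in wild-type samples and FOXD3 was at 0 in all samples. Of the forebrain markers, 4 of 5 had their highest wild-type value in this sample. So had 2 of 2 hindbrain and 4 of 5 notochord and floor plate markers. The hindbrain marker hoxb1a was about as high in wild-type replicate 1 (37.08 CPM) as in replicate 2 (37.19 CPM). The summed notochord and floor plate level was lowest in replicate 2 within the wild-type group, at 90.1, 79.1 and 88.0 CPM. The part of these cells in the members' levels was not tested. Mitochondrial genes took 4.63% of the counts in wild-type replicate 2 and 2.02% to 3.09% elsewhere. The member count, the ratios of group means and the counts of all genes and axonemal genes called lower are therefore given with and without it. Counts for the other lists and the fold changes of single genes are given with it only. In sorted bulk samples, fewer cells of a type and less RNA per cell cannot be told apart. All 12 otic-epibranchial and all 6 nephric marker genes reached 1 CPM in at least 1 sample. So did all 4 blood and vascular markers, with summed levels of 2380 to 3526 CPM.

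Across the 49 members, the lowest wild-type level exceeded the highest morphant level by 2.01- to 6.31-fold, with a median of 2.29-fold. The ratio of the group means ran from 2.27 to 19.96, with a median of 3.02. It was at least 4 for 12 members and at least 8 for 6. All 49 were tested in the fit over all genes and all 49 were called lower in morphants (edgeR's quasi-likelihood test at an adjusted p below 0.1 by the Benjamini-Hochberg method). In that fit, 6.05% of 17526 genes were called lower and 4.85% higher. A rule on the same contrast chose the members, so nothing is read from their count. Non-overlapping groups with wild-type on top were seen for 18.5% of the 11139 genes.

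**Figure D1:**
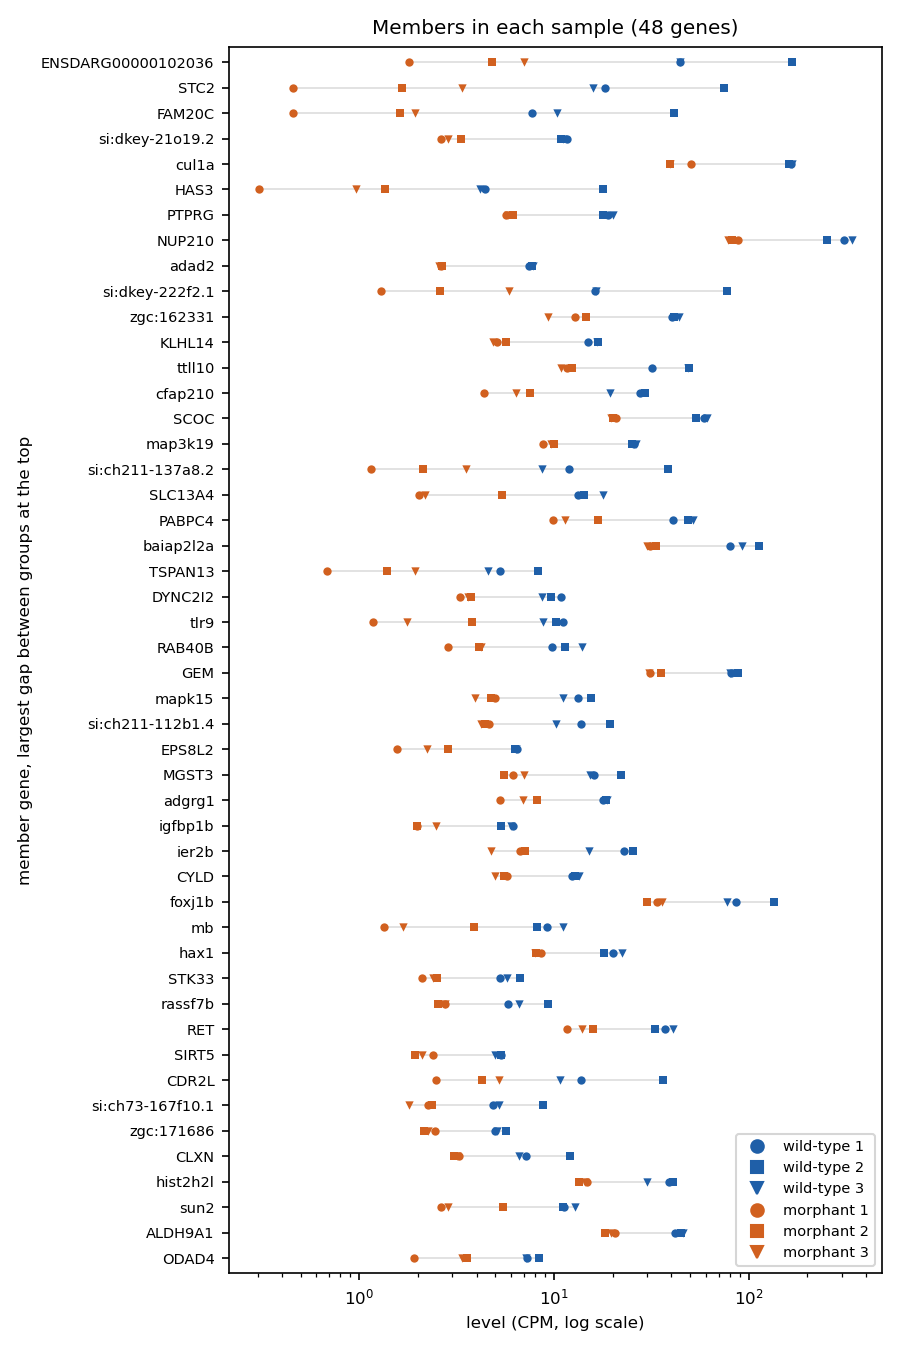
Level of 48 of the 49 members in each sample on a log axis in CPM, wild-type samples in blue and morphant samples in orange, ordered by the gap between the groups from 6.31-fold at the top to 2.01-fold at the bottom. In every row the 3 morphant points lie left of the 3 wild-type points, as the rule demands, and in 7 rows wild-type replicate 2 lies far to the right of the other wild-type samples.

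The members fell into 2 unequal sets by how the wild-type samples agreed. In 7 members, wild-type replicate 2 exceeded the mean of the other 2 wild-type samples by 2.95- to 4.74-fold. In the other 42 members this excess reached at most 1.74-fold, and no member lay between. The line between the sets, a log2 excess of 1.5, was drawn after the values had been seen. Of all 11139 genes, 63 lay above it (0.566%), so that 7 of the 49 members (14.3%) and 7 of these 63 genes (11.1%) were shared. Of the 63 genes, 22 had every wild-type sample above every morphant sample, 0 had the reverse and 41 overlapped. Over all 11139 genes, 18.5% had every wild-type sample above every morphant sample. The 63 genes were chosen for a high wild-type replicate 2, which makes the reverse hard to reach, so nothing is read from these counts.

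**Figure D2:**
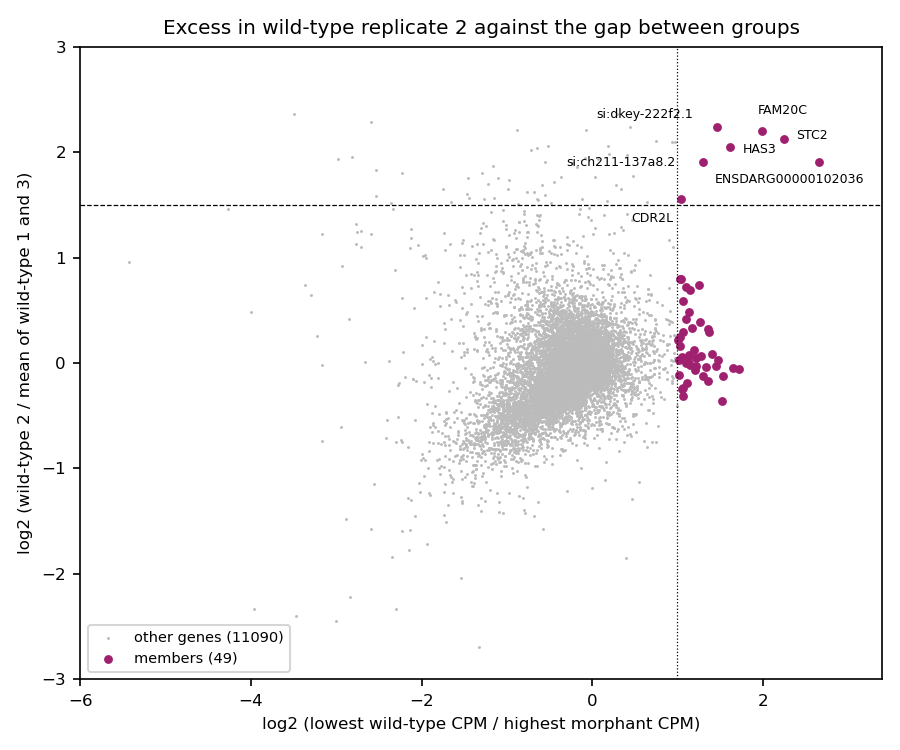
Excess of wild-type replicate 2 over the mean of wild-type replicates 1 and 3 (vertical axis, log2) against the gap between the groups (horizontal axis, log2 of the lowest wild-type over the highest morphant level) for 11090 other genes in grey and 49 members in purple, with 1 gene outside the axes. The 7 labelled members lie above the dashed line at 1.5, apart from the other 42 members, which lie between -0.36 and 0.80.

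The 7 members high in wild-type replicate 2 included the 3 with the largest gaps of all. The gene ENSDARG00000102036, which has no symbol in the name table, had 44.2, 166 and 44.5 CPM in wild-type and 1.79, 4.79 and 7.003 CPM in morphant samples. It lies on the forward strand of chromosome 2 at 4195314 to 4201017, with 4 merged exons. Its lowest wild-type level was 6.31 times its highest morphant level, the largest gap among the members.

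STC2 encodes a stanniocalcin, a secreted glycoprotein hormone first known from fish calcium control, and lies on chromosome 14 at 23917801 to 23924720. It had 18.4, 75.0 and 15.9 CPM in wild-type samples and 0.457, 1.66 and 3.35 CPM in morphant samples. Its group means of 36.4 ± 33.4 and 1.82 ± 1.46 CPM (SD, n = 3 each) differed 19.96-fold, the largest ratio of means among the members. The large wild-type SD came from replicate 2, without which the ratio of means of the 7 members ran from 3.08 to 9.80 in place of 5.08 to 19.96. A second gene with the symbol STC2 was barely detected, at 0.0714 to 0.190 CPM.

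FAM20C, a Golgi kinase that phosphorylates secreted proteins of mineralizing tissue, lies on chromosome 12 at 18112683 to 18221779. It had 7.68, 41.5 and 10.3 CPM in wild-type samples and 0.457, 1.62 and 1.93 CPM in morphant samples. The lowest wild-type level was 3.98 times the highest morphant level. The lowest morphant level rested on 12 counts, so it carries a wide counting error. HAS3, a plasma membrane enzyme that makes hyaluronan, had 4.43, 17.8 and 4.14 CPM in wild-type samples and 0.305, 1.35 and 0.965 CPM in morphant samples, the last set from 8, 35 and 23 counts. Its exons overlap those of CHTF8 on the opposite strand.

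The gene si:dkey-222f2.1 had 16.3, 77.6 and 16.5 CPM in wild-type samples and 1.295, 2.59 and 5.87 CPM in morphant samples. It showed the highest excess in wild-type replicate 2, 4.74-fold. The gene si:ch211-137a8.2, whose human counterpart is linked to inherited deafness, had 11.9, 38.6 and 8.71 CPM in wild-type samples and 1.14, 2.12 and 3.52 CPM in morphant samples. CDR2L, a relative of the cerebellar degeneration antigen CDR2, had the smallest gap of the 7. Its levels were 13.8, 36.2 and 10.7 CPM in wild-type samples and 2.48, 4.28 and 5.20 CPM in morphant samples, a gap of 2.07-fold.

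Wild-type replicate 2 never held the lowest wild-type value of these 7 genes, so their gaps are the same without it. Of the 7, 6 also kept the count minimum without it, and HAS3 did not, with a mean count of 61.6 over the other 5 samples. Within the morphant group, morphant replicate 1 was the lowest sample for all 7 and replicate 3 the highest for 6. DLX3, dlx4b and foxi1, a forkhead gene of otic competence, were likewise highest in wild-type replicate 2 within their group and highest in morphant replicate 3 within theirs. foxi1 had 8.57, 19.5 and 5.09 CPM in wild-type and 4.38, 12.7 and 26.2 CPM in morphant samples. Each sample's level was therefore also divided by its DLX3 level, a scaling chosen after the data had been seen. STC2 then stood at 0.382, 0.532 and 0.514 per unit of DLX3 in wild-type samples and at 0.00915, 0.0206 and 0.0188 in morphant samples. CDR2L stood at 0.287, 0.257 and 0.347 in wild-type and at 0.0495, 0.0531 and 0.0291 in morphant samples.

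Over the 7 genes, the highest wild-type ratio to DLX3 exceeded the lowest by 1.14- to 2.09-fold, and the lowest wild-type ratio exceeded the highest morphant ratio by 4.84- to 18.5-fold. Divided by foxi1, the gap was 2.85- to 16.4-fold. Divided by EYA1, an otic regulator that was itself lower in 2 of the morphant samples than in any wild-type sample, it was 1.87- to 5.59-fold. The choice of divisor thus changed the size of the gap, and for these 7 genes the groups overlapped in none of these divisions. The rule had already set the groups of these 7 genes apart, so nothing is read from their staying apart. foxj1b, a member of the other set, behaved differently. Its groups stayed apart after division by DLX3, with a gap of 1.41-fold, and overlapped after division by dlx4b, foxi1 or EYA1. PAX8, the gene after which the reporter is named, was highest in morphant replicate 1. It had 249.8, 297 and 233 CPM in wild-type and 405, 272 and 320 CPM in morphant samples. Divided by PAX8, the 7 genes kept a wild-type spread of 2.64- to 4.54-fold and a gap of 2.84- to 8.09-fold. In this division foxj1b had a gap of 2.95-fold.

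**Figure D3:**
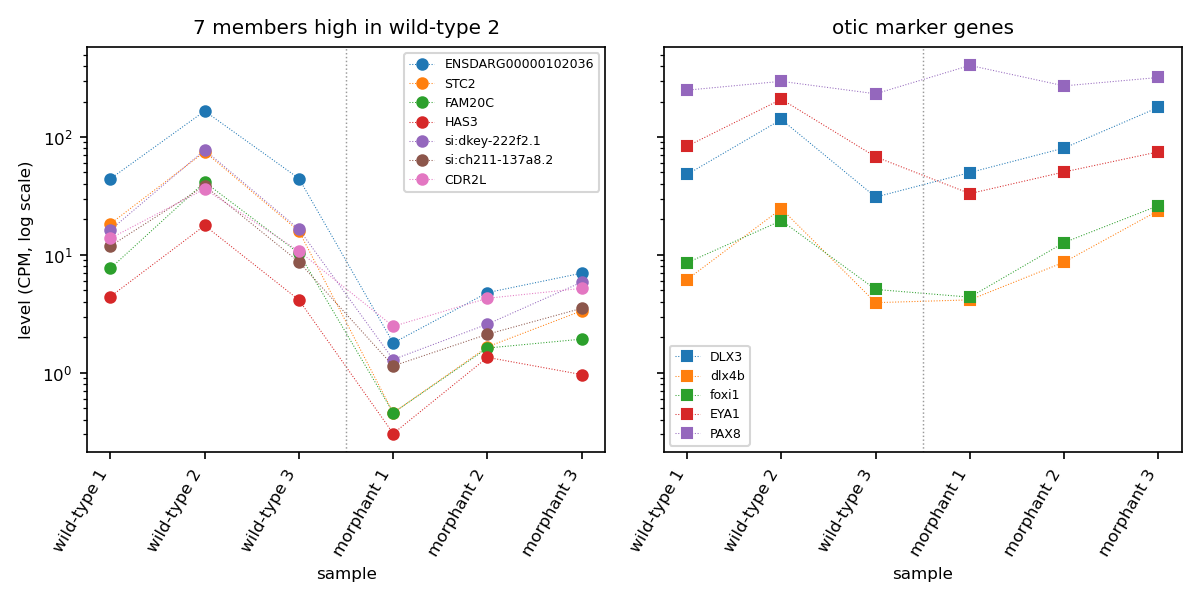
Levels in CPM on a log axis in the 6 samples for the 7 members high in wild-type replicate 2 (left) and for 5 otic marker genes (right), with dotted lines joining the values of 1 gene. DLX3 reaches 179 CPM in morphant replicate 3, above all its wild-type values, whereas STC2 stays at or below 3.35 CPM in every morphant sample.

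In the other 42 members the wild-type samples were close together. The highest wild-type level exceeded the lowest by 1.02- to 1.89-fold, with a median of 1.24-fold, against a median of 1.25-fold over all 11139 genes. The ratio of group means ran from 2.27 to 4.74, and from 2.19 to 4.87 without wild-type replicate 2. cul1a, a cullin scaffold of ubiquitin ligases, had 164, 160 and 166 CPM in wild-type and 50.8, 39.2 and 39.2 CPM in morphant samples. adad2, related to RNA-editing adenosine deaminases, had 7.43, 7.74 and 7.79 CPM in wild-type and 2.63, 2.66 and 2.56 CPM in morphant samples. The wild-type values of both genes were tight, and the gaps were 3.15- and 2.79-fold. The morphant values of cul1a spread 1.295-fold, above the median of 1.18-fold over all genes that could enter.

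Several of these 42 genes act in motile cilia, a grouping made after the members were known. foxj1b had 86.3, 135 and 77.2 CPM in wild-type and 33.8, 29.9 and 36.02 CPM in morphant samples, a gap of 2.14-fold. cfap210, a protein of the inner face of the axonemal doublets, had 27.5, 29.3 and 19.4 CPM in wild-type and 4.38, 7.56 and 6.37 CPM in morphant samples. ODAD4, which docks outer dynein arms, was the member nearest the threshold, with 7.29, 8.40 and 7.198 CPM against 1.90, 3.59 and 3.35 CPM. CLXN, a calcium-binding protein of the outer dynein arm, had 7.21, 12.1 and 6.64 CPM against 3.24, 3.05 and 3.19 CPM. Its exons overlap those of rbm48 on the opposite strand.

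Members tied to cilia or tubulin in other ways were found too. ttll10, of the tubulin tyrosine ligase-like family of glycylases, had 31.7, 49.3 and 48.6 CPM in wild-type and 11.7, 12.3 and 10.8 CPM in morphant samples. DYNC2I2, a subunit of the dynein that carries cargo back along cilia, had 10.8, 9.61 and 8.71 CPM against 3.28, 3.74 and 3.61 CPM. mapk15, a kinase that acts in cilium formation, had 13.3, 15.4 and 11.2 CPM against 4.95, 4.75 and 3.94 CPM, and its exons overlap 2 other genes on the same strand. In each of these genes the groups lay 2.25- to 2.58-fold apart.

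Only 3 members were on the ciliary lists: ODAD4, cfap210 and foxj1b. The rest of those lists show how far the loss went beyond the members. Of 103 tested genes on 4 lists of axonemal structure and assembly, edgeR called 50 lower in morphants and 0 higher, and 3 were higher at an unadjusted p under 0.05. That is 48.5% called lower, against 6.05% of all genes tested, and DESeq2 with the same model called 48 lower and 0 higher. Their median log2 fold change was -0.97, against -0.01 over all genes. The count depends on single samples. It was 5 without wild-type replicate 1, 9 without morphant replicate 1, 23 without wild-type replicate 2 and 26 without morphant replicate 2. Without wild-type replicate 3 it was 57, and without morphant replicate 3 it was 61. The count over all genes fell or rose in the same direction in each of these settings, as given in the closing section. Most axonemal genes were weakly expressed. Of the 122 listed, 50 reached the count minimum, and 32 of those 50 had all wild-type samples above all morphant samples, against 18.5% of all genes that could enter. A gap of 1.5-fold or more was seen in 12, against 1.85% of all such genes, and a gap of 2-fold or more in 2.

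Some axonemal genes that missed the rule lay close to it, such as DNAAF4 with a gap of 1.96-fold and odad3 with 1.92-fold. Others lay further off, such as ccdc40 with 1.41-fold, or overlapped between the groups. DNAAF4, which assembles dynein arms, had 14.7, 17.5 and 14.5 CPM in wild-type and 5.33, 7.41 and 7.30 CPM in morphant samples, a log2 fold change of -1.22 ± 0.18 (SE, edgeR adjusted p = 0.00955). odad3, a docking protein of the outer arm, had 12.4, 17.6 and 14.6 CPM against 5.56, 6.48 and 6.29 CPM (log2 fold change -1.27 ± 0.18, edgeR adjusted p = 0.00839). In ccdc40, which sets the axonemal repeat, the corresponding levels were 23.1, 40.3 and 20.6 CPM against 10.9, 14.7 and 11.7 CPM (log2 fold change -1.12 ± 0.17, edgeR adjusted p = 0.0104). Another 7 axonemal genes met the fold of 2 but not the count minimum, at mean counts of 10 or more, among them cfap206, ARMC3, ak8 and TEKT1.

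**Figure D4:**
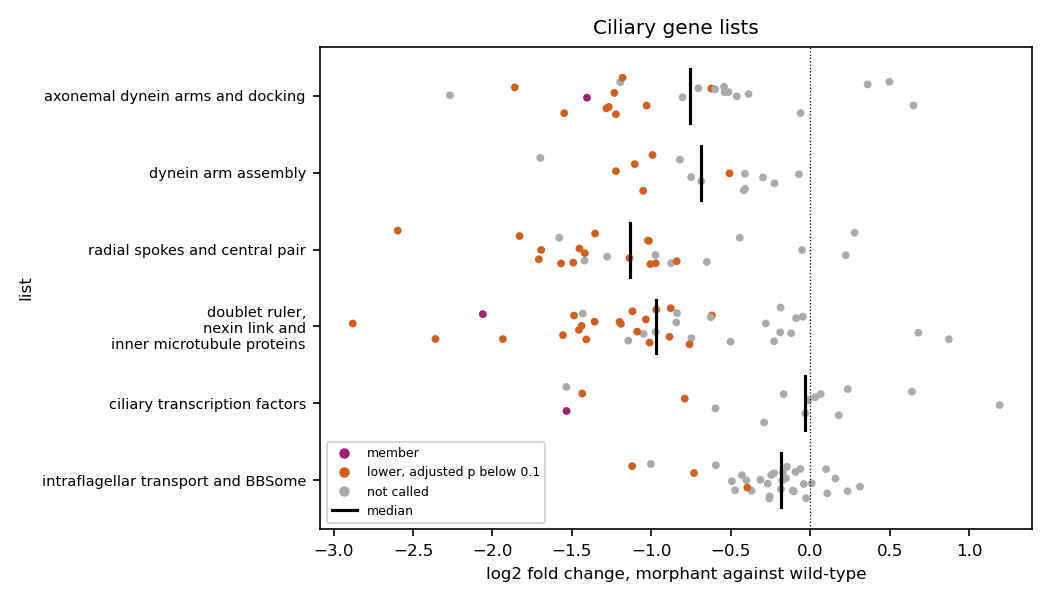
Log2 fold change between morphant and wild-type samples (horizontal axis) for the tested genes of 6 ciliary lists, with members in purple, other genes called lower in orange, uncalled genes in grey and a black bar at each median. The 4 axonemal lists have medians between -1.14 and -0.69, and the medians of the transcription factor and intraflagellar transport lists are -0.03 and -0.19.

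Regulators and transport genes of cilia were followed on lists of their own. Of 15 tested ciliary transcription factors, 3 were lower, foxj1b, FOXJ1 and MYB, which is 20% against 6.05% of all genes tested. As a member, foxj1b had been chosen on the same contrast. MYB had 74.7, 93.9 and 105.8 CPM in wild-type and 20.7, 50.6 and 35.2 CPM in morphant samples. These samples also held blood and vascular marker RNA, and the part of blood cells in the MYB level was not tested. FOXJ1, the chromosome 3 gene of the same family as foxj1b, had 255, 221.7 and 300.4 CPM in wild-type and 145, 161 and 139 CPM in morphant samples (log2 fold change -0.79 ± 0.12, edgeR adjusted p = 0.00963). RFX2 and rfx3, factors that act with Foxj1 on ciliary genes, were not called, with log2 fold changes of 0.18 ± 0.12 and 0.03 ± 0.12. Of 33 tested genes of intraflagellar transport and the BBSome, edgeR called 3 lower (9.09%, against the same 6.05%) and 0 higher. At an unadjusted p under 0.05 by edgeR, 9 were lower and 0 higher. DESeq2 with the same model likewise called 3 lower and 0 higher. No gene of the transport list was a member, and the member DYNC2I2, described above, was not among its genes.

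A list of genes that the study stained by in situ hybridization in the OEPD was also followed. The stained embryos came from carriers of a dlx3b/4b deletion, not from morpholino injection. Of its genes, 16 could enter and 8 were members: STC2, FAM20C, HAS3, CDR2L, si:dkey-222f2.1, si:ch211-137a8.2, KLHL14 and foxj1b. The 16 include both genes listed as SOX9, on chromosomes 3 and 12, whereas the study stained only sox9b. The stained genes were picked in part on these very samples, so their count is not independent evidence. For the genes that match the members on this list by symbol, the paper reports lost or reduced OEPD staining in deletion mutants. Those embryos are not described as injected. The part of the injection in the morphant RNA levels of these members was not tested. KLHL14, a kelch-like protein, had 14.9, 16.8 and 16.6 CPM in wild-type and 5.10, 5.63 and 4.86 CPM in morphant samples. It and foxj1b were the 2 of the 8 whose wild-type replicate 2 did not stand out by the log2 excess of 1.5. Among all 16, 11 were above that line. AGR2, a disulfide isomerase of secretory cells, had a gap of 3.75-fold but a mean count of 92.2, under the minimum, with 4.00, 12.5 and 2.14 CPM in wild-type and 0.571, 0.463 and 0.461 CPM in morphant samples.

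The otolith and biomineral list had 13 tested genes. Of these, 4 were lower, 30.8% against 6.05% of all genes tested, and 1 was higher. STC2 and FAM20C were its members, so 2 of the 4 lower genes had been chosen on the same contrast. Nothing is therefore read from the share. The others were SPARC and ALPL. In SPARC the groups overlapped, at 36.5, 95.4 and 37.9 CPM in wild-type and 17.8, 27.5 and 36.7 CPM in morphant samples (edgeR adjusted p = 0.0878). ALPL, a phosphatase of mineralization, was lower too but short of the rule, with 12.4, 9.46 and 12.1 CPM against 4.91, 5.79 and 3.98 CPM (log2 fold change -1.21 ± 0.22, edgeR adjusted p = 0.0190). The otolith matrix gene oc90 overlapped between the groups, at 11.8, 50.05 and 12.3 CPM against 5.71, 10.7 and 16.9 CPM (log2 fold change -0.94 ± 0.43, edgeR adjusted p = 0.237). One gene listed as STC1, a relative of STC2, was higher in morphants, at 0.643, 0.256 and 0.667 CPM against 2.13, 4.399 and 3.23 CPM (log2 fold change 2.61 ± 0.48, edgeR adjusted p = 0.0193).

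The members baiap2l2a and EPS8L2 have roles in actin-based hair bundles, which were noted after the members were known. baiap2l2a, a membrane-curving protein of stereocilia, had 80.4, 113 and 92.5 CPM in wild-type and 31.0, 33.5 and 30.1 CPM in morphant samples. Its exons overlap those of 2 genes on the opposite strand. EPS8L2, which acts at stereocilium tips in mice, had 6.43, 6.32 and 6.36 CPM against 1.56, 2.86 and 2.22 CPM. No gene of the hair cell and neuronal list was a member, and 4 of its 17 tested genes were lower, 23.5% against 6.05% of all genes tested. They were jag1b, jag2b, gfi1aa and the MYO6 gene on chromosome 17. The study stained gfi1ab, a different gene from gfi1aa. The part of blood cells in the levels of these genes was not tested. The MYO6 gene on chromosome 20 and both genes listed as MYO7A were not called, and POU4F3 was at 0 in all samples. The list includes atoh1b, which is placed on an unassigned contig and listed at 0 in every sample, so its level could not be read.

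The next 4 members, picked after their values were seen, encode signalling proteins and a transporter. RET, the receptor tyrosine kinase of glial-derived neurotrophic factors, which acts in kidney and enteric nerve development, had 37.3, 32.9 and 40.9 CPM in wild-type and 11.7, 15.8 and 13.8 CPM in morphant samples. PTPRG, a receptor phosphatase, had 18.9, 17.8 and 20.01 CPM against 5.68, 6.14 and 5.79 CPM. GEM, a small GTPase that restrains calcium channels, had 80.7, 88.0 and 80.6 CPM against 31.0, 35.2 and 30.9 CPM. SLC13A4, a sodium-coupled sulfate transporter, had 13.3, 14.3 and 17.8 CPM against 2.02, 5.40 and 2.18 CPM, the largest ratio of means of the 42, at 4.74.

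The uneven morphant levels of SLC13A4 recurred in other members. mb, the oxygen-binding myoglobin, had 9.22, 8.18 and 11.1 CPM in wild-type and 1.33, 3.898 and 1.68 CPM in morphant samples. tlr9, a receptor for DNA of the innate immune system, had 11.1, 10.3 and 8.78 CPM against 1.18, 3.78 and 1.76 CPM. sun2, a nuclear envelope protein that links to the cytoskeleton, had 11.3, 11.1 and 12.8 CPM against 2.63, 5.48 and 2.85 CPM. In all 4 genes, morphant replicate 2 was the highest morphant sample. The same order was seen in other members, such as KLHL14, GEM, RET and cfap210, but not in cul1a or foxj1b. Its share among members and among all genes is not given here, so nothing is read from it. The blood gene gata1a, a main factor of red cells, was also highest in morphant replicate 2 within its group. It had 344, 297 and 409 CPM in wild-type and 124, 194 and 176 CPM in morphant samples (log2 fold change -1.09 ± 0.14, edgeR adjusted p = 0.00542). Other blood and vascular genes were divided. SPI1, hbbe3, hbae3, kdrl and, by a narrow margin, LMO2 were likewise highest in morphant replicate 2 within their group. TAL1 and FLI1 were highest in morphant replicate 1, and GATA2 in morphant replicate 3. The nephric gene CDH17 was also highest in morphant replicate 2, so this order was not confined to blood genes. On the blood and vascular list, 5 of 9 tested genes were lower (55.6%, against 6.05% of all genes tested) and 1 was higher, and 0 were members. The part of blood cells in the levels of SLC13A4, mb, tlr9 and sun2 was not tested.

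Nephric genes moved in both directions. HNF4A, a factor of kidney tubule and gut, had 28.3, 23.2 and 30.4 CPM in wild-type and 8.80, 13.0 and 12.2 CPM in morphant samples (log2 fold change -1.28 ± 0.17, edgeR adjusted p = 0.00684). OSR1, an early nephric factor, moved the other way, at 112, 92.2 and 83.4 CPM against 164, 158 and 160 CPM (log2 fold change 0.76 ± 0.11, edgeR adjusted p = 0.00839). Of 16 tested nephric genes, 3 were lower and 2 higher, where 6.05% and 4.85% of all genes tested were called in these directions, and the part of nephric cells in the members' levels was not tested.

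Per kilobase of exon, the wild-type levels of the members ran from 1.26 to 54.0 CPM, with a median of 7.27. GEM was the highest, followed by hist2h2l, a histone gene, at 44.5, cul1a at 44.1, foxj1b at 42.9 and NUP210 at 42.7 CPM per kilobase. The last 4 differed from each other by less than the spread of the wild-type samples. NUP210, a membrane protein of the nuclear pore, had the highest count of all members, with 308, 253 and 340.4 CPM in wild-type and 87.7, 82.4 and 77.9 CPM in morphant samples.

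The remaining highly expressed members were of varied function. SCOC, a small Golgi protein of autophagy, had 59.1, 53.4 and 61.1 CPM in wild-type and 20.9, 19.99 and 19.7 CPM in morphant samples. PABPC4, a poly(A)-binding protein, had 40.8, 48.7 and 52.0 CPM against 9.83, 16.8 and 11.4 CPM. ALDH9A1, an aldehyde dehydrogenase, had 41.9, 44.8 and 46.1 CPM against 20.6, 18.3 and 19.5 CPM, but it overlaps the exons of a second gene of the same symbol on the same strand, so its counts are uncertain. Of the other members in the top 20 by gap, si:dkey-21o19.2 had 11.6, 10.9 and 11.1 CPM against 2.63, 3.32 and 2.85 CPM. map3k19, a kinase, had 25.6, 25.3 and 26.3 CPM against 8.76, 9.99 and 9.69 CPM.

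The members were spread over 24 chromosomes. In 2 cases they were direct neighbours among the genes that could enter. On chromosome 23, ttll10 (24143798 to 24186942) and si:dkey-21o19.2 (24195022 to 24205411) lie 8.08 kb apart. On chromosome 4, zgc:162331 (4774151 to 4786635) and SLC13A4 (4795123 to 4823579) lie 8.49 kb apart, and zgc:162331 had 40.3, 41.5 and 44.1 CPM in wild-type and 12.8, 14.7 and 9.27 CPM in morphant samples.

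Among the 93 non-member genes directly next to a member, 16 were called lower and 6 higher. That is 17.2% lower, against 7.48% of the 11139 genes that could enter, and 4 had a gap of 1.5-fold or more. Their median log2 fold change was -0.01, the same as over all genes tested. The members did not stand out in size. Their exon length had a median of 2404 bp against 2580 bp, and they had a median of 9 merged exons against 10. Their mean count was lower, with a median of 291 against 717.

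The highest wild-type value lay in wild-type replicate 2 for 27 members (55.1%), against 29.6% of all genes that could enter. With TMM-scaled library sizes these shares were 69.4% and 35.3%. Without the 7 genes of the first set, 20 of 42 members (47.6%) had their highest wild-type value there. The lowest morphant value lay in morphant replicate 1 for 25 members (51.0%), against 42.3% of all genes. ALDH9A1, sun2 and ODAD4 were the 3 members just inside the threshold, at 2.01- to 2.03-fold. MICALL2, IVNS1ABP and LRATD2 lay just outside it, at 1.96- to 2.00-fold. MICALL2, which links actin to cell junctions, had 79.4, 62.4 and 86.2 CPM in wild-type and 28.2, 31.2 and 29.3 CPM in morphant samples. Its gap, though not its level, was close to those of the members just inside.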

How the data were processed

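RNA of sorted cells from 3 wild-type and 3 morphant samples was analysed from the raw counts per gene that the authors deposited, which are not normalized. Sources differ on how they were made. The submitters' processing notes name GRCz10, featureCounts 1.5.2 and bcl2fastq 2.17.1.14, whereas the study's Methods name GRCz11 and another featureCounts version. The labels describe a strand-specific library kit and the Methods another protocol. Coordinates are printed as the deposited table gives them, and whether strand was used in counting is not given in the sources used here. For 12 members, exons overlap those of another gene. Besides those marked above, they include SLC13A4, PABPC4, DYNC2I2 and sun2, each with a gene on the opposite strand.

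The deposited table also lists 92 spike-in rows, which were left out. CPM were counts divided by the sample total. Genes were named from a table that matched 26433 of 32266 identifiers. It gives 24 of the 49 members a symbol in capitals that can lack the zebrafish copy letter. The fit over 17526 genes used R 4.3.3 and edgeR 4.0.16 (filterByExpr, TMM, the quasi-likelihood test, the replicate number as a block, and an adjusted p below 0.1 by the Benjamini-Hochberg method). DESeq2 1.42.0 was an alternative. The code was tested on simulated counts. The block follows the study, which modelled a clutch effect. Replicates are described as biological, and neither labels nor Methods assign clutches to samples, so the replicate number only stands in for the clutch.

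The members and gene lists were chosen with earlier results of these data known. Named were the 20 members with the largest gap, the 10 with the highest mean level, members on a list, those nearest the threshold, neighbouring members and list genes. Other members described were chosen after their values were seen. Of the members, 1 is counted but not reported by name here. Alternatives were other scalings, count minimums, fold thresholds and tools, and leaving out samples.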

Additional observations from a re-analysis of the deposited data

How the results depend on the processing

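The rule found 49 members, 45 with TMM scaling (43 of the 49 among them), 43 with DESeq2 size factors, 73 at a mean count of 50 and 32 at a mean count of 200. It found 117 with 10 counts in every wild-type sample, 206 at a fold of 1.5 and 6 at a fold of 3. With 1 sample left out it found 60 to 104, the most without morphant replicate 2. Without wild-type replicate 2 it found 62, of which 43 were among the 49, and the other 6 of the 49 fell under the count minimum. The median log2 gap was 1.19 to 1.298 under every other scaling, count minimum and set of samples. It was not computed at other folds. The fit called 1061 genes lower, and 581 at an adjusted p below 0.05. Without a same-numbered pair or 1 sample it called 123 to 2037: 123, 145 and 170 without the replicate 1 pair or its wild-type or morphant sample, 655, 648 and 703 likewise for replicate 2, and 1799, 1901 and 2037 for replicate 3. Members called lower numbered 49 under every other tool, scaling, filter and threshold, and 39 to 49 with samples left out. With no replicate block the fit called 1318 genes lower, all 49 members included. For a check of pairing, each gene's group mean was subtracted from its log2 CPM, and these deviations were correlated between samples. Deviations of same-numbered samples correlated at 0.16, 0.05 and -0.14, so pairing by number is not seen in the data. That does not show that the numbers carry no clutch. The deviations of wild-type replicate 2 correlated best with those of morphant replicate 3, at 0.22. Of 32 members with a mean count of 200, 17 were highest in wild-type replicate 2. The search for X-box motifs in promoters was not run, because no promoter sequences were used here. At 3 counts per sample, levels under about 0.126 CPM cannot be read.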
